A study of Mus musculus with 12 samples.

Results

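The effect of losing metabotropic glutamate receptor 5 (mGluR5) was compared between mice with a short and mice with a long glutamine repeat in huntingtin. For each gene, the difference between striata without and with mGluR5 was taken in Q111 mice and in Q20 mice, and the Q20 difference was subtracted from the Q111 difference. The result, called the interaction here, is on the log2 scale: 0 means that receptor loss changed the gene equally on both alleles, a positive value that the level moved further up, or less far down, in Q111 mice. All 12 of 12 arrays entered, and 16721 of 19938 genes with a symbol of their own were tested.

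Huntingtin carries a run of glutamines near its amino end, and expansion of that run causes Huntington's disease, in which projection neurons of the striatum are lost. mGluR5, the product of Grm5, is a receptor for glutamate that couples to Gq proteins, phospholipase C and the release of stored calcium, and it is abundant in striatal projection neurons. Mutant huntingtin has been described to alter signalling by group I metabotropic receptors, to which mGluR5 belongs.

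The 4 groups held 3 arrays each, all from the striatum of male mice aged 90 days. The Q20 groups were HdhQ20/Q20, homozygous for a knock-in huntingtin allele named for the shorter repeat, with mGluR5 present (mGluR5+/+) or absent (mGluR5-/-). The Q111 groups were HdhQ111/Q111, homozygous for the longer repeat, with the same pair of receptor genotypes. Thus all groups carried knock-in huntingtin, and none was wild type at that locus. The genetic background of every mouse was a mixture of 129, CD-1, C57BL/6 and FV, so that alleles of those strains that differ between groups cannot be told apart from the effects of the genotypes. Whether each array of a group stands for its own animal is not stated in the labels, so the spread behind the p-values is that of these samples and may be technical. In whole striatum, fewer cells of a type and less RNA per cell cannot be told apart.

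The arrays resembled each other, with correlations between arrays of 0.978 to 0.993 and medians of 7.05 to 7.16 on the log2 scale. Genes that define the striatum (Ppp1r1b, Drd1, Drd2, Penk, Tac1, Rgs9 and Pde10a) lay above the 75th percentile on 12 of 12 arrays. Grm5 itself had log2 signals of 11.95, 12.08 and 11.97 in Q20 mice with the receptor and 11.06, 10.93 and 11.17 in Q20 mice without it. In Q111 mice the signals were 11.96, 12.01 and 11.85 with the receptor and 11.14, 11.09 and 10.98 without it. The groups with and without mGluR5 did not overlap, and Grm5 fell by 0.94 and 0.87 (SE 0.09 for each), with adjusted p-values of 0.000189 and 0.00017 in limma. Its interaction was 0.07 ± 0.13 (SE), adjusted p = 1. The signal of the whole transcript remained high without the receptor, and where the probes lie relative to the deleted part was not analysed here. Htt lay between 9.71 and 10.05 on all arrays, with an interaction of 0.03 ± 0.12 (adjusted p = 1).

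The difference between mice without and with mGluR5, named receptor loss below, was unequal on the 2 alleles in 73 of 16721 genes. These were 0.437% of those tested (limma, Benjamini-Hochberg adjusted p below 0.05, here termed called). As stated above, strain alleles that differ between groups cannot be told apart from that difference. The interaction was positive in 36 genes (0.215%) and negative in 37 (0.221%). Its size ranged from 0.61 to 5.01, with a median of 1.02, and reached 1.5-fold in all 73 and 2-fold in 37. The median SE over all tested genes was 0.16, so the test itself leaves out most small interactions and sets the lower end of that range. Unadjusted p-values under 0.05 were found in 898 genes (5.37%). With the submitters' own criteria applied to the interaction, an unadjusted ANOVA p below 0.05 and 1.5-fold, 165 genes (0.987%) passed. That threshold is looser than the adjusted one behind the 73. Leaving out 1 array reduced the count by more than 1.5 times for 7 arrays. These were Q20 with mGluR5 replicates 2 (44 genes) and 3 (40), Q20 without mGluR5 replicate 1 (34), Q111 with mGluR5 replicate 1 (42) and Q111 without mGluR5 replicates 1 (46), 2 (47) and 3 (45).

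In most called genes receptor loss passed its own test on 1 allele. Of the 73 genes, 28 passed the test for receptor loss in Q20 mice alone, 21 in Q111 mice alone, 4 in both and 20 in neither. In 3 of the 4 the changes had opposite signs. Counted by sign alone, whether or not they passed, the changes were opposite in 61 of the 73 and in 49% of all tested genes, and selection on the interaction favours such genes. The share called was 0.299% for receptor loss in Q20 mice (50 genes) and 0.275% for receptor loss in Q111 mice (46 genes). Across all genes, the 2 effects of receptor loss, which share no samples, had a Pearson correlation of -0.0156 and a Spearman correlation of 0.0154. Genes are not independent replicates, and these correlations are descriptions.

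**Figure D1:**
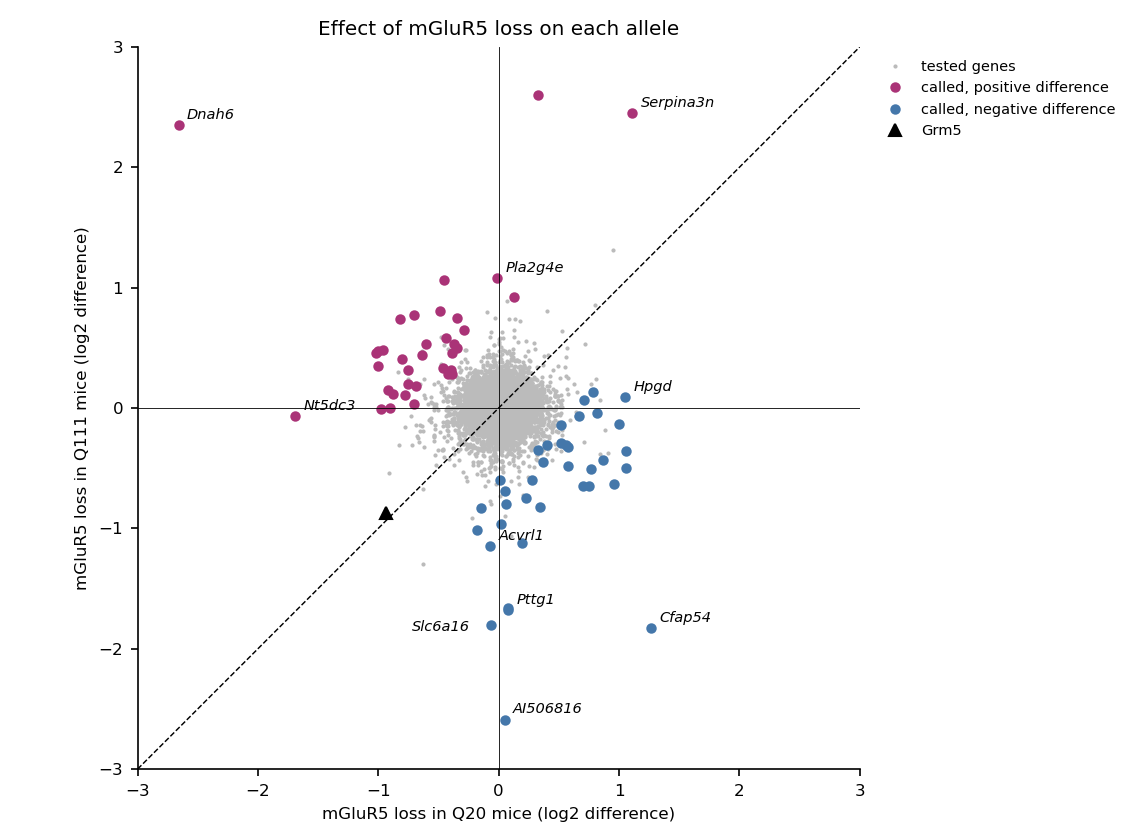
Each point is 1 tested gene, with its log2 difference between mice without and with mGluR5 in Q20 mice on the x axis and in Q111 mice on the y axis. Grm5 lies near the diagonal of equal change, while Dnah6 (-2.66 and 2.35) and Cfap54 (1.27 and -1.83) lie in opposite corners.

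When the 4 group means were split at their widest gap, 26 called genes paired Q20 mice of 1 receptor genotype with Q111 mice of the other. In 15 of these crossed genes, Q20 mice with mGluR5 and Q111 mice without it were high, and in 11 the other pair was high. Those patterns held 3.24% and 3.36% of all tested genes. The arrays of the 2 pairs did not overlap in 14 and 11 of these called genes, and 55 of all tested genes (0.329%) were crossed without overlap. In the other 47 called genes, 1 group stood apart from the other 3. That group was Q20 with the receptor in 10 genes and without it in 14, and Q111 with the receptor in 9 and without it in 14. The arrays on the 2 sides of the gap did not overlap in 69 of the 73 genes, against 6.97% of all genes. The exceptions were Aldh7a1, Rpl34, Lta4h and Tnni1. Selection on the interaction favours crossed patterns and groups without overlap, so these shares describe the called genes and are no separate support.

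**Figure D2:**
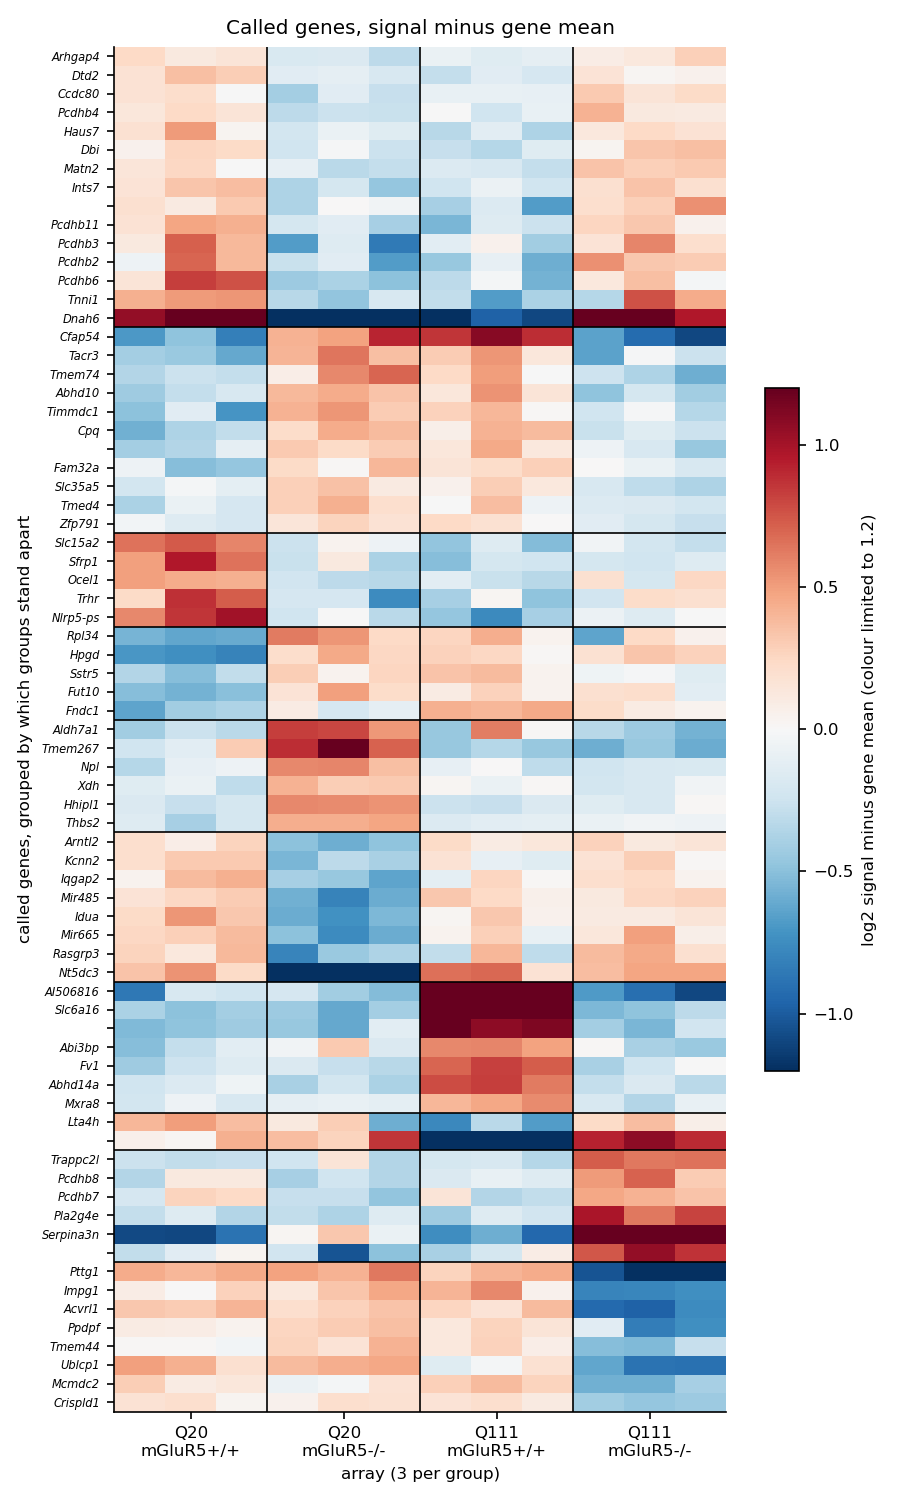
Rows are the 73 called genes and columns the 12 arrays, with colour for the log2 signal relative to the mean of the gene. Predicted, vomeronasal and small nucleolar RNA genes are drawn without their names. Dnah6 and Cfap54 show mirrored crossed patterns.

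The largest interaction was that of Dnah6, a heavy chain of axonemal dynein, the motor that bends motile cilia. Its signals were 8.45, 8.72 and 8.87 with mGluR5 and 6.00, 6.09 and 5.96 without it in Q20 mice. In Q111 mice the order was turned, with 6.07, 6.42 and 6.30 with mGluR5 and 8.78, 8.70 and 8.35 without it. The 2 high groups lay at least 1.93 above the 2 low groups, and no array crossed between them. Between mice without and with mGluR5, Dnah6 differed by -2.66 ± 0.13 in Q20 mice and by 2.35 ± 0.13 in Q111 mice. The interaction was 5.01 ± 0.19 (32.3-fold, limma adjusted p = 1.04e-09). The signals of the 2 low groups, 5.96 to 6.42, lay above but close to the highest 25th percentile of the arrays (5.94). The size of this interaction therefore rests partly on signals near background. The 2 other probe sets of the gene gave 5.10 and 4.19. The set that gave 5.10 lay above the 25th percentile on 10 arrays, and the set that gave 4.19 on all arrays.

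Cfap54, a protein of the central apparatus of motile cilia, had the largest negative interaction and was high in the other pair of groups. Its signals in Q20 mice were 7.87, 8.08 and 7.74 with mGluR5 and 8.98, 9.05 and 9.48 without it. In Q111 mice they were 9.42, 9.66 and 9.45 with the receptor and 7.92, 7.64 and 7.47 without it. The high and low pairs did not overlap, and the interaction was -3.10 ± 0.21 (8.58-fold, adjusted p = 1.65e-06). A second probe set gave -1.72. Dnah6 and Cfap54 both belong to the motile cilium list, in which they were the 2 genes called among 35 tested, where 0.437% of all genes were called. The median interaction of that list was 0.06, beside -0.013 for all genes. The list was chosen with earlier results of these data known, so its count is a description.

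The window upstream of Dnah6 is shown because no other gene had as large an interaction. Those of Abhd10 and Slc35a5 are shown because these neighbouring genes of chromosome 16 shared a crossed pattern. Timmdc1, elsewhere on chromosome 16, had the same pattern and its window is not shown. Each window shown holds the 250 bases before the start of the gene in RefSeq on GRCm38.p6. They are chr6:73221632-73221881, chr16:45742956-45743205 and chr16:45158674-45158923, all on the minus strand and written 5′ to 3′. Capitals mark matches on either strand to CCAAT or CACGTG. In these windows no match overlapped another.
Dnah6: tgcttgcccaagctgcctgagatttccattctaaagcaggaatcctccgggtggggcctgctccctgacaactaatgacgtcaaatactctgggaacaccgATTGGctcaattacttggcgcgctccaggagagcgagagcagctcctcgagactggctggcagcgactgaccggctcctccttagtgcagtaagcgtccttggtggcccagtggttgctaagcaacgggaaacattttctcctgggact
Abhd10: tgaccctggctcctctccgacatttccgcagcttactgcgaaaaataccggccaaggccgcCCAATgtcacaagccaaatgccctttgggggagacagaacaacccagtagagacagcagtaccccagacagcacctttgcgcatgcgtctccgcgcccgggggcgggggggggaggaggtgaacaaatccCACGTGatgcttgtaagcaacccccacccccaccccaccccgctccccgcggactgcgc
Slc35a5: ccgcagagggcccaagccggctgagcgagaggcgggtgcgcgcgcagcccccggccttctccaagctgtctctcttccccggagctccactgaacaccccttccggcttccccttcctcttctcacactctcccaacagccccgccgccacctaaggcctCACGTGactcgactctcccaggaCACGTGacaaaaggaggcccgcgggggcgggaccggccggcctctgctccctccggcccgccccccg
CCAAT was found in 33.8% and CACGTG in 6.02% of 32851 windows of the same length. GTTGCC was searched as well, as exact letters on either strand, and was in 10.4% of windows and in 0 of these 3. Stretches that differ from a motif by a letter were not counted. A match is a description of letters and not a site.

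Abhd10, a hydrolase of mitochondria, was, beside Dnah6 and Cfap54, a gene in which receptor loss passed the test on both alleles with opposite signs. Its signals in Q20 mice were 7.84, 7.98 and 8.07 with mGluR5 and 8.65, 8.71 and 8.61 without it. In Q111 mice they were 8.40, 8.80 and 8.42 with the receptor and 7.78, 8.05 and 7.85 without it. The pairs did not overlap, and the interaction was -1.34 ± 0.16 (adjusted p = 0.00132). Slc35a5, of a family of nucleotide sugar transporters, had the same pattern at a smaller size (-0.82 ± 0.14, adjusted p = 0.0181). Beside them, Ccdc80, a protein of the extracellular matrix, went the other way (0.72 ± 0.14, adjusted p = 0.0292). The calls of Slc35a5 and Ccdc80 were lost without 5 and 9 single arrays, with adjusted p-values up to 0.0703 and 0.113, both without Q20 without mGluR5 replicate 1.

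Other crossed genes high in Q20 mice without and Q111 mice with mGluR5 included Tacr3, the receptor of neurokinin B (-1.59 ± 0.21, adjusted p = 0.00153). Cpq, a secreted carboxypeptidase, had -1.28 ± 0.16 (adjusted p = 0.00132), and Timmdc1, an assembly factor of respiratory complex I, had -1.29 ± 0.20 (adjusted p = 0.00825). Tmem74, a membrane protein, had -1.40 ± 0.22 (adjusted p = 0.00825), with 2 of its 4 groups below the highest 25th percentile of the arrays. Leaving out any 1 array kept these 4 calls.

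Crossed genes high in Q20 mice with and Q111 mice without mGluR5 included Ints7, a subunit of the Integrator complex that processes small nuclear RNAs. It had an interaction of 1.08 ± 0.14 (adjusted p = 0.00153). Matn2, an extracellular matrix protein encoded beside Cpq, had 0.89 ± 0.13 (adjusted p = 0.0064), a sign opposite to that of its neighbour. Both calls held without any 1 array. Dbi, an acyl-CoA binding protein, had 0.85 ± 0.16 (adjusted p = 0.0241). The X-linked Haus7, of the augmin complex of the spindle, and Arhgap4 had 0.84 ± 0.16 (0.0328) and 0.67 ± 0.12 (0.0251). Tnni1, troponin I of slow muscle, had 1.56 ± 0.28 (0.0233), but 1 array of Q111 mice without mGluR5 read 7.14 where the other two read 8.25 and 7.93. The calls of Dbi, Haus7, Arhgap4 and Tnni1 were lost without 7, 10, 8 and 6 single arrays. The highest adjusted p-values were 0.0905 and 0.117 for Dbi and Haus7 (without Q20 without mGluR5 replicate 1) and 0.08 and 0.0752 for Arhgap4 and Tnni1 (without Q111 without mGluR5 replicate 3).

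**Figure D3:**
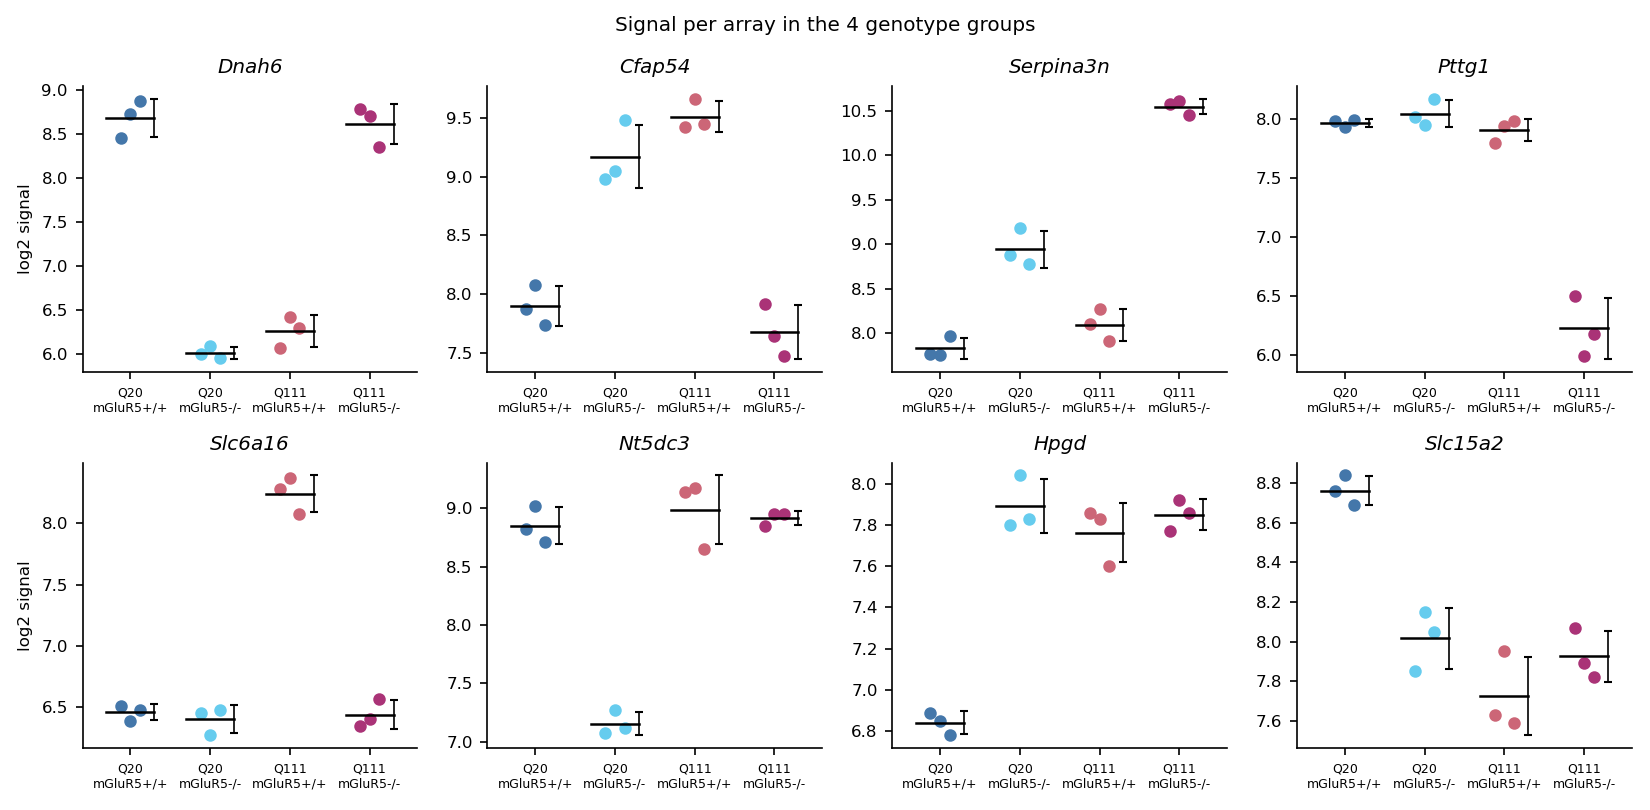
Log2 signals of genes with a large interaction are plotted for every array in the 4 groups, with a line for each group mean and a bar of 1 SD on either side. Dnah6 and Cfap54 cross between the alleles, whereas Pttg1, Slc6a16, Nt5dc3, Serpina3n, Hpgd and Slc15a2 each have 1 group apart.

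Mice that combined the Q111 allele with loss of mGluR5 stood apart in 14 called genes, high in 6 and low in 8. A vomeronasal receptor gene among the high genes would have failed the signal filter without the arrays of these mice. Its pattern is therefore not independent of that filter. Serpina3n, a secreted inhibitor of serine proteases that reactive astrocytes produce, read 10.58, 10.61 and 10.45 in these mice. In Q20 mice it read 7.77, 7.76 and 7.97 with mGluR5 and 8.88, 9.18 and 8.78 when the receptor was absent, and in Q111 mice with the receptor 8.11, 8.27 and 7.91. Serpina3n was thus higher without the receptor on both alleles, by 1.11 ± 0.12 in Q20 mice and by 2.45 ± 0.12 in Q111 mice. The interaction was 1.34 ± 0.17 (2.53-fold, adjusted p = 0.00153), and Serpina3n was the 1 called gene in which both effects passed with the same sign. Of the other 24 genes tested in the reactive astrocyte list, limma called 0, and 2 had an unadjusted p under 0.05.

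Pttg1, securin, which restrains the separation of sister chromatids, was low in the combined mutants alone. It read 6.5, 5.99 and 6.18 there and between 7.80 and 8.17 on the other 9 arrays, with an interaction of -1.76 ± 0.17 (3.39-fold, adjusted p = 0.000101). Acvrl1, a receptor of the bone morphogenetic protein family found in endothelium, read 7.28, 7.24 and 7.46 there and 8.38 to 8.62 elsewhere (-1.08 ± 0.13, adjusted p = 0.00114). The combined mutants did not overlap any other group for either gene. Impg1, a proteoglycan of the retinal matrix, had -1.30 ± 0.18 (0.00347), with the combined mutants below the highest 25th percentile. Ublcp1, a phosphatase that acts on the proteasome and like Pttg1 encoded on chromosome 11, had -0.86 ± 0.16 (0.0251), a call lost without 8 single arrays (up to 0.0872 without Q111 without mGluR5 replicate 2).

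Pla2g4e, a cytosolic phospholipase A2, was higher in the combined mutants. Its signals there were 7.79, 7.44 and 7.62, against 6.38 to 6.65 on the other 9 arrays. The interaction was 1.09 ± 0.16 (2.13-fold, adjusted p = 0.00445).

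Q111 mice that kept mGluR5 stood apart in 9 called genes, high in 7. Slc6a16, an orphan member of the neurotransmitter transporter family, read 8.28, 8.37 and 8.08 in these mice and between 6.27 and 6.57 on the other 9 arrays. The share of genes called between the alleles was 0.574% with mGluR5 and 0.885% without it. With mGluR5, Slc6a16 was higher in Q111 than in Q20 mice by 1.79 (limma adjusted p = 9.82e-08). Without mGluR5 the alleles differed by 0.04 (adjusted p = 0.94). The interaction was -1.74 ± 0.14 (3.35-fold, adjusted p = 2.31e-05). AI506816 read 6.10, 6.80 and 6.80 in Q111 mice with mGluR5 and 3.77 to 4.67 elsewhere. Those 3 other groups were below the highest 25th percentile, so the size of its interaction (-2.64 ± 0.28, adjusted p = 0.000348) rests on signals near background. AI506816 was tested only because the 3 arrays of Q111 mice with mGluR5 passed the signal filter, so its pattern is not independent of that filter.

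Fv1, a retrovirus restriction factor known for alleles that differ between mouse strains, was high in the same group (-0.98 ± 0.15, adjusted p = 0.00825). Abhd14a, a hydrolase domain protein, was too (-0.83 ± 0.13, 0.0101), as was Abi3bp, an extracellular matrix protein (-1.15 ± 0.20, 0.0181). The call of Abi3bp was lost without 6 single arrays, with an adjusted p up to 0.0608 without Q111 without mGluR5 replicate 2. Lta4h, the enzyme that makes leukotriene B4 and a neighbour of Cfap54, was lowest in these mice (7.35, 7.80 and 7.46), but 1 array of Q20 mice without mGluR5 read 7.54 and overlapped them. Its interaction of 1.30 ± 0.25 (0.0371) lost the call without 9 single arrays, up to 0.129 without Q111 with mGluR5 replicate 1.

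Q20 mice without mGluR5 stood apart in 14 called genes, low in 8 and high in 6. Nt5dc3, of a family of 5'-nucleotidases, read 7.08, 7.27 and 7.12 there and between 8.65 and 9.17 on the other 9 arrays. Nt5dc3 was lower without the receptor in Q20 mice (-1.69 ± 0.13, adjusted p = 1.11e-05), while the difference in Q111 mice was -0.07 ± 0.13 (adjusted p = 1). The interaction was 1.62 ± 0.18 (3.08-fold, adjusted p = 0.000656). Idua, the lysosomal enzyme iduronidase, was also low in Q20 mice without mGluR5 (0.97 ± 0.15, adjusted p = 0.00779). So were Arntl2, a circadian transcription factor (0.73 ± 0.12, 0.0158), Kcnn2, a calcium-activated potassium channel (0.88 ± 0.15, 0.0181), and Rasgrp3, an activator of Ras (1.21 ± 0.24, 0.0359). The calls of Arntl2, Kcnn2 and Rasgrp3 were lost without 3, 5 and 10 single arrays. The highest adjusted p-values were 0.0606 and 0.132 for Arntl2 and Rasgrp3 (without Q20 with mGluR5 replicate 3) and 0.0723 for Kcnn2 (without Q20 without mGluR5 replicate 1).

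High in the same group were Tmem267, a membrane protein (-1.12 ± 0.22, adjusted p = 0.0328), and Thbs2, the matrix protein thrombospondin 2 (-0.64 ± 0.12, 0.0321). Aldh7a1, an enzyme of lysine breakdown, was also highest there on average (-1.56 ± 0.27, 0.0163), although 1 array of Q111 mice with mGluR5 read 10.11, within the range of 10.02 to 10.33 of that group. These calls were lost without 10, 10 and 3 single arrays. The highest adjusted p-values were 0.104 (Tmem267, without Q20 with mGluR5 replicate 2), 0.102 (Thbs2, without Q111 without mGluR5 replicate 1) and 0.0622 (Aldh7a1, without Q20 without mGluR5 replicate 1).

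The 2 called microRNA genes, Mir485 and Mir665, were also low in Q20 mice without mGluR5. Their sequences are given because both lie in 1 run of microRNA genes on chromosome 12, which RefSeq on GRCm38.p6 places at chr12:109734902-109734974 for Mir485 and chr12:109586314-109586407 for Mir665, both on the plus strand. Capitals mark the seed, bases 2 to 8, of each mature sequence listed for them, and those mature sequences in each hairpin. For Mir485 only the 3p sequence was listed, so its other arm is left unmarked.
mmu-miR-485-3p: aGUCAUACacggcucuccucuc
mmu-miR-665-5p: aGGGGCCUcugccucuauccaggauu
mmu-miR-665-3p: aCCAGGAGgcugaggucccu
Mir485: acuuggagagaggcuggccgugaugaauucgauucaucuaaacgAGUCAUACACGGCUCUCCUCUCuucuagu
Mir665: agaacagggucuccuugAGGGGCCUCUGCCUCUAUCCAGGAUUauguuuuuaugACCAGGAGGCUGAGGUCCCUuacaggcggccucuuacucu
None of these 3 seeds is shared. The labelling was of total RNA on a whole-transcript array, so the signal is that of the gene and does not tell a mature arm from its precursor. Mir485 read 8.83, 8.60 and 8.81 in Q20 mice without mGluR5 and 9.47 to 9.73 on the other 9 arrays (0.90 ± 0.14, adjusted p = 0.00809). Mir665 read 8.02, 7.75 and 7.91 there and 8.42 to 9.0 elsewhere (1.08 ± 0.18, adjusted p = 0.0113). Neither group overlapped the rest.

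The run from Dlk1 to Mir369 is an imprinted region in which the non-coding RNAs Meg3 and Rian and many microRNAs are made from the maternal chromosome. Of its 44 tested genes, 37 were microRNA genes. Receptor loss in Q20 mice gave a negative difference in 35 of the 37, with a median of -0.37 over a range from -0.92 to 0.06, beside a median of 0.02 for all tested genes. Receptor loss in Q111 mice gave a negative difference in 25 of them, with a median of -0.08, beside 0.006 for all genes. The interaction was positive in 32 with a median of 0.27, and 8 had an unadjusted p under 0.05. The region was chosen after its values were seen, and neighbouring genes made from a shared transcript are not independent. Meg3 had an interaction of 0.25 ± 0.13 and Rian of -0.16 ± 0.18, both with an adjusted p of 1.

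**Figure D4:**
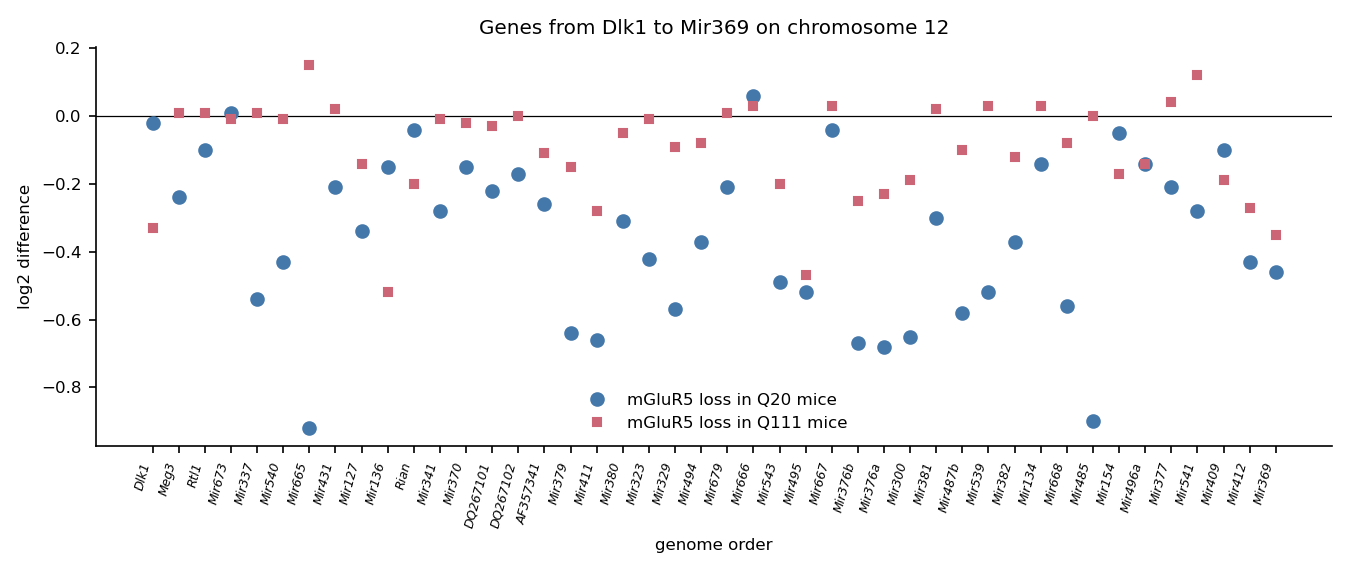
Log2 differences between mice without and with mGluR5 are plotted for genes of chromosome 12 in genome order, with circles for Q20 and squares for Q111 mice. Circles lie below 0 for 35 of the 37 microRNA genes, and the lowest belong to Mir665 and Mir485.

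Q20 mice with mGluR5 stood apart in 10 called genes, high in 5 and low in 5. Nlrp5-ps, a pseudogene, read 7.68, 7.96 and 8.11 there and 6.34 to 7.10 on the other 9 arrays (1.46 ± 0.18, adjusted p = 0.00132). Slc15a2, a transporter of small peptides, had 0.95 ± 0.16 (0.0165), Sfrp1, a secreted inhibitor of Wnt signalling, had 1.0 ± 0.20 (0.0393), and Ocel1 had 1.07 ± 0.16 (0.00644). Trhr, the receptor of thyrotropin-releasing hormone and a neighbour of Tmem74, had 1.34 ± 0.27 (0.0453), with 2 of its groups below the highest 25th percentile. Calls of Slc15a2, Sfrp1 and Trhr were lost without 4, 9 and 9 single arrays. The highest adjusted p-values were 0.0685 and 0.137 for the first 2 (without Q20 without mGluR5 replicate 1) and 0.147 for Trhr (without Q20 with mGluR5 replicate 3).

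Hpgd, the enzyme that inactivates prostaglandins, was low in Q20 mice with mGluR5. It read 6.89, 6.85 and 6.78 there and 7.6 to 8.04 on the other 9 arrays, with no overlap. Its interaction was -0.97 ± 0.14 (adjusted p = 0.00462). Sstr5, a somatostatin receptor, had -0.90 ± 0.15 (0.0164), and Rpl34, a ribosomal protein with many near-identical pseudogene copies that make its probe signal uncertain, had -1.42 ± 0.25 (0.0181). In Rpl34, 1 array of Q111 mice without mGluR5 read 8.97 and overlapped the low group. Calls of Sstr5 and Rpl34 were lost without 4 and 5 single arrays, up to 0.0685 and 0.0703, both without Q20 without mGluR5 replicate 1.

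A group of protocadherin beta genes had positive interactions. They lie in 1 cluster on chromosome 18, and each encodes a cell adhesion protein used by neurons to tell their own branches from those of others. Of 21 tested, 7 were called, all positive, where 0.215% of all genes were called positive. The list was chosen with earlier results of these data known, so this count is a description and no separate support. The median interaction was 0.35 and 14 were above 0. In genome order all 7 lay among the first 10 tested, whereas Pcdhb12 to Pcdhb22 had none. The protocadherin beta genes resemble each other in sequence, so probe sets may share signal and they are not independent.

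The called cluster genes were crossed or high in the combined mutants. Pcdhb6 read 8.86, 9.54 and 9.47 in Q20 mice with mGluR5 and 8.27, 8.33 and 8.21 without it, and in Q111 mice 8.39, 8.68 and 8.14 with it and 8.83, 9.07 and 8.68 without it. Its high and low pairs touched but did not overlap, at a distance of 0.01, and the interaction was 1.48 ± 0.24 (adjusted p = 0.0101). Pcdhb11 had 1.14 ± 0.18 (0.008), Pcdhb2 1.48 ± 0.26 (0.0181), Pcdhb3 1.45 ± 0.26 (0.024) and Pcdhb4 0.79 ± 0.14 (0.0233). Pcdhb7 and Pcdhb8, highest in the combined mutants, had 1.02 ± 0.20 (0.0398) and 0.94 ± 0.18 (0.0328). Receptor loss in Q20 mice passed its own test for Pcdhb6 (-1.02, adjusted p = 0.0123) and Pcdhb3 (-0.96, 0.0404). In Q111 mice the smallest adjusted p of the 21 was 0.0511, for Pcdhb8 (0.65).

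The number of called cluster genes ranged from 2 to 8 when 1 array was left out. It was 2 without Q20 with mGluR5 replicate 3 and 3 without Q20 with mGluR5 replicate 2, Q20 without mGluR5 replicates 1 and 3 or Q111 without mGluR5 replicate 1. It was 4 without Q20 without mGluR5 replicate 2, Q111 with mGluR5 replicates 1 and 3 or Q111 without mGluR5 replicate 2. Pcdhb6 and Pcdhb11 were called in each of the 12 fits.

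**Figure D5:**
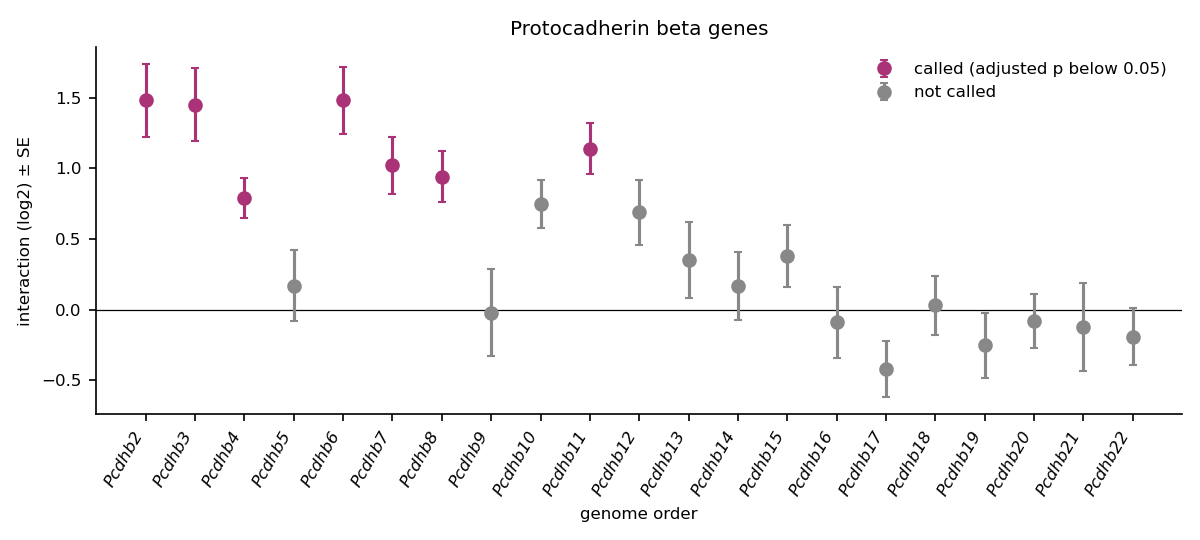
The interaction (log2, with its standard error) is plotted for the 21 tested protocadherin beta genes in genome order, with called genes in colour. Called genes lie between Pcdhb2 and Pcdhb11, and values from Pcdhb16 onward lie between -0.42 and 0.03.

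By chromosome, counts of called genes were as follows, with evenness not tested. Chromosome 18 held 9 of 419 tested genes (2.15%), of which 7 were protocadherins, and chromosome 16 held 7 of 529 (1.32%), beside 0.437% overall. Chromosomes 14 and 19 held none of 590 and 554. A called gene lay within the nearest 5 tested genes on either side for 18 of the 73. Besides the protocadherins, these were Abhd10, Slc35a5 and Ccdc80 on chromosome 16, Cpq with Matn2 and Tmem74 with Trhr on chromosome 15, and Cfap54 with Lta4h on chromosome 10, where the remaining pair were predicted genes. In each of these 4 neighbourhoods the interactions included both signs.

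The glutamate receptors and their partners showed no called gene in limma. Over all tested genes, 0.437% were called and 5.37% had an unadjusted p under 0.05. At that share most lists of these sizes, here and in the next paragraphs, would hold no called gene. A count of 0 called is therefore not evidence that a list lacks an interaction. Of 6 other metabotropic glutamate receptors none was called and none had an unadjusted p under 0.05, with Grm7 at -0.28 ± 0.13 (adjusted p = 0.93) and Grm4 at -0.17 ± 0.14 (1). The 29 tested genes for scaffolds and signalling of group I receptors had 0 called and 0 under an unadjusted 0.05. Gnaq, the Gq protein of the receptor, had -0.23 ± 0.14 and Prkca, protein kinase C alpha, -0.31 ± 0.19 (both adjusted p = 1). Ionotropic glutamate receptors had 0 of 16 called and 0 under an unadjusted 0.05, with Grin2b at 0.11 ± 0.14 and Grik5 at 0.10 ± 0.12.

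Inhibitory and presynaptic genes had no call in limma with the settings used throughout, but a GABA receptor gene passed under others. Of 17 genes for GABA synthesis, transport and receptors, 0 were called and 2 had an unadjusted p under 0.05. Gabra2, a subunit of the GABA-A receptor, had 0.54 ± 0.13 (adjusted p = 0.115), and Slc6a11, a GABA transporter, -0.43 ± 0.15 (0.655). Gabra2 was called with an intensity trend (0.0352), quantile normalization (0.0373), the interquartile range as a covariate (0.015) and array weights (0.0219 by default, 0.0108 gene by gene). Synaptic vesicle proteins had 0 of 17 called and 0 under an unadjusted 0.05, with Napb at -0.25 ± 0.15 and Pclo at -0.19 ± 0.14.

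Genes of striatal neuron identity, which fall in Huntington's disease models, had 0 of 38 called and 1 under an unadjusted p of 0.05, with a median interaction of 0 and 19 on each side. Pdyn, which encodes prodynorphin, had -0.60 ± 0.21 (adjusted p = 0.613) and Dclk3 -0.28 ± 0.15 (1). Direct-pathway markers had 0 of 10 called and 2 under 0.05, led by Eya1 (0.58 ± 0.15, 0.243), and indirect-pathway markers 0 of 10 and 1, led by Plxdc1 (0.46 ± 0.16, 0.581). Immediate early genes had 0 of 24 called and 1 under 0.05, with Egr1 at -0.33 ± 0.14 (0.825) and Jun at -0.34 ± 0.17 (0.994).

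Genes of energy metabolism and protein handling also gave no call in limma with the settings used throughout. Oxidative phosphorylation subunits had 0 of 66 called and 6 under an unadjusted 0.05, among them Ndufa12 (0.97 ± 0.24, adjusted p = 0.176) and Ndufs4 (-0.72 ± 0.18, 0.193), subunits of complex I with opposite signs. Chaperones had 0 of 28 called and 3 under 0.05 (Hspa4 -0.31 ± 0.13, Hspa5 -0.41 ± 0.17). Proteasome subunits had 0 of 27 and 1 (Psmb1 0.49 ± 0.15, Psmd1 -0.31 ± 0.16), and autophagy genes 0 of 23 and 1 (Becn1 -0.30 ± 0.12, Atg3 -0.27 ± 0.17). Cholesterol synthesis had 0 of 19 and 0 (Sc5d -0.26 ± 0.15, Insig1 -0.28 ± 0.16). Interferon response and class I histocompatibility genes had 0 of 20 and 3 (H2-Q2 0.46 ± 0.16, Ifit3 0.54 ± 0.22). In reactive astrocyte genes the gene next to Serpina3n by p was Emp1 (-0.36 ± 0.14, 0.75).

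Markers of other cells gave 0 called in limma in every list with the settings used throughout. Under an unadjusted p of 0.05 lay 1 of 18 oligodendrocyte markers (Tspan2 -0.38 ± 0.16, Mbp 0.25 ± 0.12) and 2 of 16 astrocyte markers (Gjb6 -0.39 ± 0.13, Agt -0.69 ± 0.30). So did 4 of 19 microglial markers (Fcrls -1.16 ± 0.35, Siglech 0.35 ± 0.13) and 3 of 19 vascular markers (Abcc9 -0.48 ± 0.12, Slco1a4 0.85 ± 0.20). The counts were 0 of 13 for choroid plexus and ependyma (Ttr -1.06 ± 0.74, Kcnj13 -0.38 ± 0.28) and 0 of 13 for cortical neurons (Tbr1 -0.46 ± 0.27, Rasgrf2 -0.31 ± 0.18). They were 1 of 16 for thalamus, hypothalamus and septum (Prkcd 1.11 ± 0.29, Slc17a6 0.58 ± 0.31) and 2 of 17 for interneurons (Slc17a8 0.46 ± 0.14, Cck 0.41 ± 0.18). Blood markers had 0 of 5 (Ptprc -0.16 ± 0.15, S100a9 -0.18 ± 0.22). Under other settings Abcc9 was called in the unmoderated model (adjusted p = 0.0467), with the interquartile range as a covariate (0.0236) and with gene-by-gene weights (0.0107). Slco1a4 was called with the replicate block (0.0471) and gene-by-gene weights (0.00356). Prkcd was called without Q20 with mGluR5 replicate 2 (1.38, 0.0316), without replicate 2 of every group (1.51, 0.00893) and with gene-by-gene weights (0.0105).

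Single arrays differed in markers of neighbouring tissue. Ttr, which the choroid plexus makes, reached 9.28 in Q20 without mGluR5 replicate 2 and 8.54 in Q20 with mGluR5 replicate 1. The thalamic markers Prkcd and Slc17a6 reached 8.45 and 6.94 in Q20 with mGluR5 replicate 1. Ependyma also expresses cilium genes. Choroid plexus and ependyma markers, averaged as 1 mixed list, had levels of 6.55 to 7.02 in Q20 mice with mGluR5 and 6.75 to 6.97 without it. In Q111 mice the levels were 6.62 to 6.92 with it and 6.61 to 6.70 without it, and the groups overlapped. Whether ependymal content contributed to the values of the cilium genes was not tested. Dnah6 had an interaction of 4.91 to 5.14 and Cfap54 of -3.22 to -2.95 when 1 array was left out, and both remained called.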

How the data were processed

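The authors deposited log2 signals made with RMA, and the submitters' processing notes name Partek and RMA; the series' design text names Partek Genomics Suite 6.5. RMA subtracts background, equalises probe distributions between arrays and summarises each probe set, which can hide a change shared by all genes. The number of arrays, 3 per group, limits the precision. Of 35556 probe sets, 21789 had 1 gene symbol in the platform annotation, 1621 several and 12146 none; symbols were updated through RefSeq (GRCm38.p6), where 26 named sets had no match. For each of 19938 genes the probe set of highest mean signal stood for the gene, and 16721 genes lay above the 25th percentile on at least 3 arrays.

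All 12 arrays were fitted together in limma 3.58.1 under R 4.3.3, with a mean for every group. Tests were two-sided, p-values were adjusted by Benjamini-Hochberg across the 16721 genes, and a gene was called below 0.05. The fit left 8 residual degrees of freedom. Errors are standard errors. The script was tested on simulated data. Changes simulated in Q111 mice without mGluR5 were called in 16.5% of the changed genes at 1.5-fold, 86% at 2-fold and 98% at 3-fold. False calls numbered 0, 10 and 11. The simulated noise was independent between arrays, whereas same-numbered arrays here deviated together, and no crossed change was simulated. These rates check the script and do not give the power in these data.

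Named genes were Grm5, Htt, the 15 largest called interactions in each direction, called members and the 2 smallest p-values of each list, and called genes near another among the 5 tested genes on either side. Predicted, receptor-type olfactory and small RNA genes were counted. Hpgd, Slc15a2, Sfrp1, Idua, Arntl2, Thbs2, Kcnn2, Fv1, Abhd14a, Ublcp1, Sstr5, Mir485, Mir665, Haus7, Arhgap4 and Dbi, the chromosome 12 run and the eicosanoid list were chosen after their values were seen. The comparison, members and lists were chosen with earlier results of these data known. Whether replicate numbers mark a shared batch is not stated in the labels, and the fit used no replicate block.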

Additional observations from a re-analysis of the deposited data

Results flagged for a closer look

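The genes below are those named in which the difference between mice without and with mGluR5 was unequal between alleles, by the interaction test. Values are interactions on the log2 scale, from limma at an adjusted p below 0.05, with 3 arrays per group. No explanation was tested.

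Among crossed genes high in Q20 mice with and Q111 mice without mGluR5 were Dnah6 (5.01), Tnni1 (1.56), Pcdhb2 (1.48), Pcdhb6 (1.48), Pcdhb3 (1.45), Pcdhb11 (1.14), Ints7 (1.08), Matn2 (0.89), Dbi (0.85), Haus7 (0.84), Pcdhb4 (0.79), Ccdc80 (0.72) and Arhgap4 (0.67). Crossed the other way were Cfap54 (-3.10), Tacr3 (-1.59), Tmem74 (-1.40), Abhd10 (-1.34), Timmdc1 (-1.29), Cpq (-1.28) and Slc35a5 (-0.82).

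Mice with both mutations stood apart for Serpina3n (1.34), Pla2g4e (1.09), Pcdhb7 (1.02), Pcdhb8 (0.94), Pttg1 (-1.76), Impg1 (-1.30), Acvrl1 (-1.08) and Ublcp1 (-0.86). Q111 mice with mGluR5 stood apart for AI506816 (-2.64), Slc6a16 (-1.74), Abi3bp (-1.15), Fv1 (-0.98), Abhd14a (-0.83) and Lta4h (1.30). AI506816 passed the signal filter only through that group.

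Q20 mice without mGluR5 stood apart for Nt5dc3 (1.62), Rasgrp3 (1.21), Mir665 (1.08), Idua (0.97), Mir485 (0.90), Kcnn2 (0.88), Arntl2 (0.73), Aldh7a1 (-1.56), Tmem267 (-1.12) and Thbs2 (-0.64). Q20 mice with mGluR5 stood apart for Nlrp5-ps (1.46), Trhr (1.34), Ocel1 (1.07), Sfrp1 (1.0), Slc15a2 (0.95), Rpl34 (-1.42), Hpgd (-0.97) and Sstr5 (-0.90).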

How the results depend on the processing

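All 73 called genes kept their direction in the 28 alternatives wherever they were tested (59 under the stricter filter). Alternatives that change only the test or its threshold leave the interaction itself unchanged, so the direction could not differ there. The others reuse arrays on which the genes were selected, so a kept direction is no separate support. Of the 52 named called genes, 10 kept the call in all 28: Dnah6, Cfap54, Pttg1, Slc6a16, Nt5dc3, Abhd10, Cpq, Acvrl1, Ints7 and Hpgd. Of the other 42, 38 lost it in the unmoderated linear model, which called 19 genes (8 positive, 11 negative, 9 crossed, 0 protocadherins). The submitters' criteria called 165 (73 positive, 92 negative, 55 crossed). The interquartile range of each array as a covariate called 153 (70, 83 and 46). Quantile normalization called 80, with 4 protocadherins. Leaving out replicate 2 of every group called 47, with 18 negative and 4 protocadherins. The cause of these differences was not tested.

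Array weights gave counts that depended on how they were estimated. The default estimate, which gave a convergence warning and weights from 0.178 to 12.3, called 85 and retained 63 of the 73. Estimation gene by gene, added after that warning was seen, gave weights from 0.258 to 3.68 and called 326 (177 positive, 149 negative, 90 crossed), with all 73 retained.

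Leaving out 1 array gave 34 to 69 called genes, 16 to 41 positive, 18 to 33 negative, 13 to 25 crossed and 2 to 8 protocadherins. A replicate block called 107, with 40 crossed, and retained all 73. Same-numbered arrays deviated together, with a correlation over 0.1, in 11 of 18 pairs. These 18 correlations ran from -0.144 to 0.567 (median 0.28), and from 0.339 to 0.567 among those of replicate 2. In 36 pairs of other numbers they ran from -0.555 to 0.449 (median -0.0849), the highest between replicates 1 and 3. Of 12 arrays, 9 correlated best with their own number, which is a hint from the data and not the design. Lists with 0 called genes had members called under alternatives: up to 3 oxidative phosphorylation subunits, up to 2 direct-pathway and 2 vascular markers, and 1 each for GABA, striatal identity, indirect-pathway, proteasome, chaperone, microglial, interneuron and thalamic lists.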

Other observations

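Of the enzymes and receptors of eicosanoids, lipid mediators made from arachidonic acid, 33 were listed after Pla2g4e, Lta4h and Hpgd had been seen among the called genes. Of the 28 tested, 2 were called positive (Pla2g4e 1.09 and Lta4h 1.30) and 1 negative (Hpgd -0.97), with a median interaction of -0.08. Of all tested genes, 0.215% were called positive and 0.221% negative, and since the list was drawn up around these genes, nothing is read from its count. The call of Lta4h was lost without 9 single arrays, with an adjusted p in limma up to 0.129 without Q111 with mGluR5 replicate 1. The 3 genes act at different steps, and their patterns differed: Pla2g4e was high in Q111 mice without mGluR5, Lta4h low in Q111 mice with it and Hpgd low in Q20 mice with it.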
